A study of Mus musculus with 2 samples.

Results

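The genes described here are 9 enzymes that form wax esters, triglycerides and sterol esters, with the reductase that supplies the alcohol of a wax ester. They are *Far2*, *Awat1*, *Awat2*, *Dgat1*, *Dgat2*, *Dgat2l6*, *Mogat1*, *Mogat2* and *Soat1*, taken by gene symbol from the 32285 genes listed for both tissues. All 9 were listed in both. Of the 9, 7 had over 3 unique molecular identifiers (UMIs, each a counted RNA molecule) in the cells of back skin and 7 in those of the preputial gland (PG). *Mogat2* had 0 UMIs in both tissues, *Dgat2l6* had 2 in skin and *Awat1* had 0 in PG.

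A sebaceous gland releases its product by the breakdown of whole sebocytes (SEB) that have filled with neutral lipid, and the PG is a large modified sebaceous gland. Fatty acyl-CoA reductases such as *Far2* turn an activated fatty acid into a fatty alcohol, and the wax synthases *Awat1* and *Awat2* join that alcohol to a second activated fatty acid. *Dgat1* and *Dgat2* catalyse the last step of triglyceride synthesis, *Mogat1* and *Mogat2* acylate monoacylglycerol, and *Soat1* esterifies cholesterol. By sequence, *Awat1*, *Awat2*, *Dgat2l6*, *Mogat1* and *Mogat2* belong to the family of *Dgat2*, whereas *Dgat1* and *Soat1* belong to the membrane-bound O-acyltransferase family.

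The study compared 2 libraries, 1 from back skin biopsies and 1 from whole PGs of 3 male C57BL/6 wild type mice aged 52 weeks, with no treatment named in the labels. Cells of the 3 mice were pooled within each tissue, so there was no replicate, no difference between tissues was tested, and library and tissue cannot be told apart. Cells were barcodes that reached 500 genes and 1000 UMIs and whose mitochondrial share did not exceed 10%, 8899 in skin and 4699 in PG, with median depths of 2386 and 2729 UMIs. The barcode lists of the 2 libraries held 6794880 and 737280 barcodes, of which 77142 were in both, although the labels name 1 kit for both libraries. A difference in kit or list can thus not be told apart from the tissue in any ratio of PG over skin. No cell barcode occurred in both libraries, but only 153 skin and 455 PG cell barcodes stood on the other list, so this says little about shared cells. Levels are given as UMIs of a gene per 1000000 UMIs of a group of cells (CPM) with exact 95% Poisson intervals, and ratios as log2 values with exact 95% binomial (Clopper-Pearson) intervals. Both kinds of interval cover counting error only, and cells of 1 library are not replicates.

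Cell classes were set by marker genes, none of which is among the 9, so a class name means a cell that is like that type by its markers. SEB were cells with at least 50 UMIs of 10 SEB markers per 10000 UMIs and at least 4 of the markers. This gave 49 skin SEB (sSEB) and 955 PG SEB (pSEB), with median depths of 4147 and 4584 UMIs. SEB with more UMIs of 6 markers of the lipid-filled stage than of 6 basal keratin and adhesion markers were called differentiated (23 sSEB and 855 pSEB) and the rest early (26 and 100). All 10 markers had UMIs in both stages of sSEB and in differentiated pSEB, and 8 of 10 in early pSEB. *Apoc1* alone gave 47.8% of the marker UMIs of early sSEB, and 82.4% of those in the other epithelial cells of skin. *Mgst1* alone gave 50.2% of the marker UMIs of differentiated pSEB and 37.0% of those of early pSEB. It is also 1 of the 6 stage markers, with *Elovl3*, *Cidea*, *Fasn*, *Plin2* and *Acsbg1*. Of these, *Mgst1* had 31905 UMIs in differentiated pSEB and the next, *Plin2*, 5036. In differentiated sSEB *Mgst1* had 457 and *Cidea* 290. The stage of pSEB thus rests mainly on *Mgst1*, which also stood at 799 CPM in other epithelial cells and 767 CPM in fibroblasts of PG. Stages without it were not tested. Adipocyte marker UMIs, which could mark fat cells rich in *Dgat1* and *Dgat2*, numbered 0 in sSEB and 6 in pSEB. Near the limit, 16 skin cells lay between 40 and 50 marker UMIs per 10000 and 12 between 50 and 60, against 203 and 119 in PG.

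Of the 9 genes, 3 stand side by side on the X chromosome. In the GENCODE annotation of GRCm38, *Awat2* (ENSMUSG00000031220) lies at chrX:100402221-100442717 on the minus strand, *Dgat2l6* (ENSMUSG00000067597) at chrX:100524838-100546144 and *Awat1* (ENSMUSG00000015665) at chrX:100572251-100578205, both on the plus strand. The 3 span 176 kb with 2 other protein-coding genes, *Otud6a* and *Igbp1*, and *Otud6a* overlaps *Awat2* on the other strand. *Dgat2* (chr7:99153658-99182719) and *Mogat2* (chr7:99219084-99238619) are neighbours within 85.0 kb on the minus strand, with no coding gene between them. *Dgat1* lies at chr15:76502015-76511953 and *Soat1* at chr1:156424525-156474331 on the minus strand, *Mogat1* at chr1:78510991-78538173 and *Far2* at chr6:148047259-148182758 on the plus strand. *Far2* is overlapped on the other strand by *Ergic2* and 2 antisense genes, and whether reads were counted by strand is not given in the sources used here. No pair of the 9 genes, of 36 pairs, shared a run of 30 bases in their annotated transcripts.

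The promoters of the 3 X-linked genes are shown because these neighbours had their UMIs in different tissues and classes, as described next. Each is the 150 bases before a RefSeq start site (GRCm38.p6), 5′ to 3′ on the strand of the gene, at chrX:100572097-100572246 for *Awat1*, at chrX:100442718-100442867 and chrX:100412588-100412737 for the 2 start sites of *Awat2*, and at chrX:100524688-100524837 for *Dgat2l6*. Capitals mark a CCAAT box on either strand.
Awat1: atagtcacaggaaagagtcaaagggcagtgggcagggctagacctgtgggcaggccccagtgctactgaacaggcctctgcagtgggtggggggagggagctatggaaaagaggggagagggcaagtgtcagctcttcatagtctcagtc
Awat2, upstream start: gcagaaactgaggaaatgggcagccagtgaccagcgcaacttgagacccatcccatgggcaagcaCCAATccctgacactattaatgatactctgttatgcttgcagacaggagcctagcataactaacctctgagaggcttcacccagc
Awat2, downstream start: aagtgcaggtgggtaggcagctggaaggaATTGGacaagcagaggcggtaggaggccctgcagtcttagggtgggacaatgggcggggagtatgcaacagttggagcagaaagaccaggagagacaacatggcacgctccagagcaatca
Dgat2l6: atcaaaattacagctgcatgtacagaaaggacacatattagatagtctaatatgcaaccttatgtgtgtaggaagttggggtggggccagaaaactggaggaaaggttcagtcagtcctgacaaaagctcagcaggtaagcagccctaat
The letters CCAAT were found once in each *Awat2* window and in neither of the other 2, and 24.5% of the 32851 promoter windows of this length in the table held them. AGGTCA (8.58% of all windows), TCACNCCAC (0.639%) and TATAAA (7.57%), searched on both strands, were in none of the 4 windows. A match is a description of the letters only. RefSeq promoter entries were found for 6 of the 9 genes.

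The first question was whether the enzymes of neutral lipid esterification differ between SEB of the 2 glands. In pSEB the wax synthase *Awat2* was higher than in sSEB, whereas the reductase *Far2*, the wax synthase *Awat1* and the sterol acyltransferase *Soat1* were lower, and the triglyceride synthases *Dgat1* and *Dgat2* were within 2-fold. Of the 6 members with enough UMIs for a ratio, 1 was past 2-fold higher and 3 past 2-fold lower. Among all 8058 genes with a ratio, 18.9% were past 2-fold higher, 17.8% lower and 36.7% either. *Dgat2l6*, *Mogat1* and *Mogat2* gave no ratio, with at most 2 UMIs in SEB of either tissue.

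**Figure D1:**
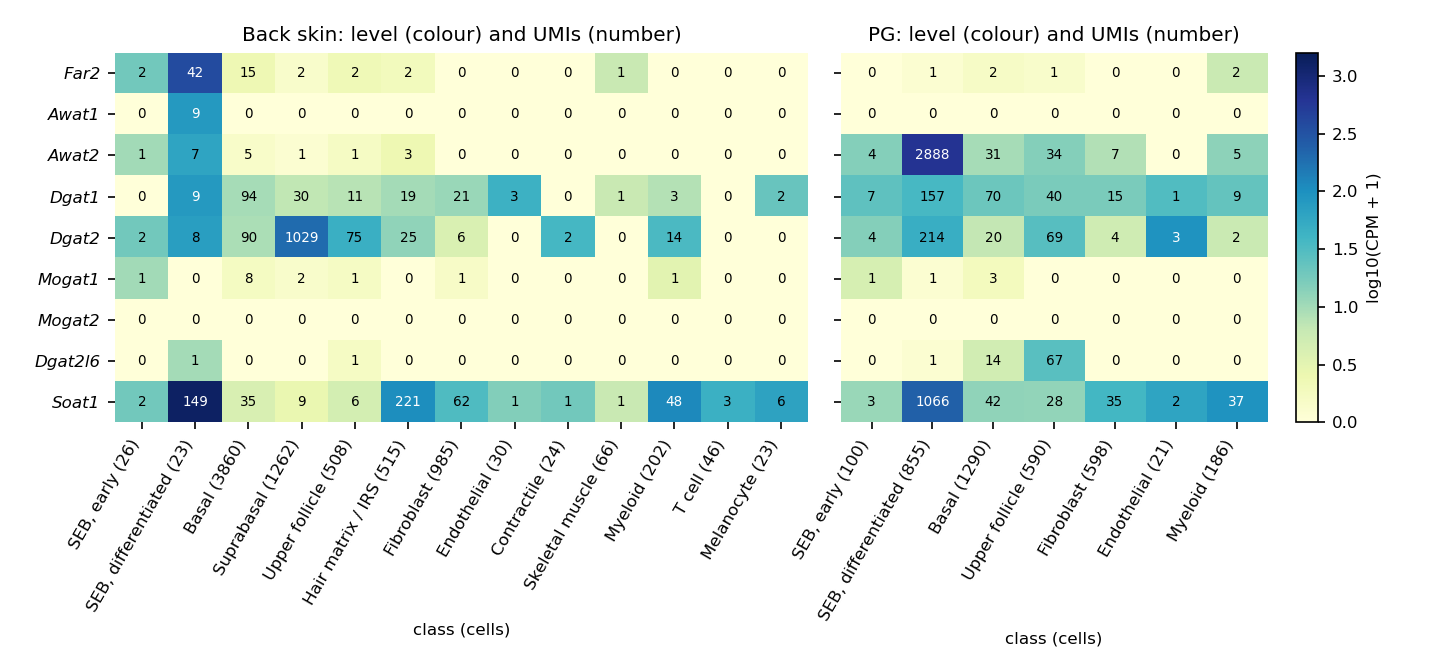
Level of each gene (rows) in each class with at least 20 cells (columns, number of cells in parentheses), for back skin on the left and PG on the right. Colour is log10(CPM + 1) and the number in each field is the UMI count. *Far2* and *Awat1* are dark in differentiated sSEB, with 42 and 9 UMIs, and pale in pSEB, *Awat2* is darkest in differentiated pSEB with 2888 UMIs, and *Dgat2* is darkest in the suprabasal class of skin with 1029 UMIs.

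*Far2*, the alcohol-forming reductase, was a gene of sSEB in these libraries. Its level was 198 CPM in sSEB (144 to 266, 44 UMIs) and 0.209 CPM in pSEB (0.00529 to 1.16, 1 UMI), a log2 ratio of -9.89 (-15.23 to -7.34). PG as a whole held 7 *Far2* UMIs, no more than 2 of them in any class or cluster. Within skin, *Far2* stood at 372 CPM in differentiated sSEB, with UMIs in 15 of 23 cells, and at 18.4 CPM in early sSEB (2 UMIs). All other named skin classes lay between 0 and 5.10 CPM, the highest being 1 UMI in skeletal muscle. SEB were 0.551% of skin cells and held 57.1% of its *Far2* UMIs.

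*Awat1* was detected in skin alone. Differentiated sSEB held 9 of its 10 UMIs, in 2 of 23 cells, at 79.7 CPM (36.4 to 151), and 5 of the 9 were in a single cell. No *Awat1* UMI was counted among the 15270076 UMIs of PG cells, against a level in sSEB of 40.6 CPM (18.5 to 77.01). With 3 UMIs put in place of the count of 0, the gene was 64.7-fold lower in pSEB than in sSEB. Without the SEB of at least 300 marker UMIs per 10000, of which that cell was the 1 in skin, the log2 value moved from -6.02 to -4.84. These values take sSEB at the counted level and leave out its counting error. Later ratios given as "at least" were formed in the same way.

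*Awat2* showed the opposite tissue pattern. It stood at 605 CPM in pSEB (583 to 627, 2892 UMIs) and at 36.1 CPM in sSEB (15.6 to 71.1, 8 UMIs), 16.8-fold higher in PG with a log2 ratio of 4.07 (3.09 to 5.28). Differentiated pSEB held 96.2% of the *Awat2* UMIs of PG. Its UMIs were however in few cells: 113 of 855 differentiated pSEB (13.2%) had any, the median cell had 0, and 1 cell had 392. In fibroblasts, which should lack the gene, 1.17% of cells had a UMI at a median depth of 1366 against 4851 in differentiated pSEB. With every cell thinned to 1000 UMIs the shares were 6.55% (4.99 to 8.42) and 0.836% (0.272 to 1.94). Between tissues the share of positive SEB did not differ as the level did. *Awat2* UMIs were in 117 of 955 pSEB (12.25%) and 6 of 49 sSEB (12.24%, 4.63 to 24.8), at median depths of 4584 and 4147. After thinning they were in 58 pSEB and 1 sSEB. Of the 23 differentiated sSEB, 5 had a UMI.

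The concentration of *Awat2* was greater than that of any other member in PG with over 100 UMIs. In all of PG, 12 cells held 67.9% of its 3002 UMIs, and 7 cells held 50%. The same share in 12 cells was 34.7% for *Soat1*, 10.3% for *Dgat1* and 9.86% for *Dgat2*. Clusters made without the 9 genes placed 1905 of the *Awat2* UMIs in 1 cluster of 12 cells led by *Idi2*, *Far1* and *Pnpla5*, at 17034 CPM (16278 to 17816), with all 12 cells positive. These cells had 333 SEB marker UMIs per 10000, a median mitochondrial share of 7.94% and a median depth of 9428 UMIs. A second cluster of 41 cells, led by *Soat1* and *Slc36a2*, held 685 *Awat2* UMIs at 2674 CPM, 6.37-fold less. Without the cluster led by *Idi2* the log2 ratio of pSEB over sSEB was 2.55, still past 2-fold. The 41 cells of the second cluster, all gated as SEB, stayed in this ratio. The clusters led by *Idi2* and *Soat1* held 1905 and 685 of the 2892 *Awat2* UMIs of pSEB. By marker share, the 472 pSEB with 50 to 100 SEB marker UMIs per 10000 stood at 6.75 CPM. The 251 with 100 to 150 stood at 25.1 CPM and the 125 with 150 to 200 at 51.5 CPM, against 36.1 CPM in all sSEB. No ratio was formed without both clusters, and no 2-fold excess of the remaining pSEB over sSEB is claimed.

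*Soat1* was lower in pSEB at 223 CPM (210 to 237, 1069 UMIs) than in sSEB at 681 CPM (576 to 798, 151 UMIs), a log2 ratio of -1.61 (-1.85 to -1.35). In sSEB its UMIs were in 15 of 49 cells, and the top cell held 48. In fibroblasts 5.79% of skin cells and 5.35% of PG cells had a *Soat1* UMI, at median depths of 1826 and 1366 UMIs. The ratio depended on how SEB were delimited. With clusters in place of the marker limit, which left 48 sSEB and 199 pSEB, the log2 ratio was 0.04. These sets differed in stage, with 21 differentiated and 27 early sSEB against 198 differentiated and 1 early pSEB. Not all pSEB had less *Soat1* than sSEB. The 12-cell PG cluster led by *Idi2* stood at 2530 CPM (283 UMIs), above differentiated sSEB at 1319 CPM (log2 0.94, 0.65 to 1.24).

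*Dgat1* and *Dgat2* differed between the SEB of both glands by less than their counting error. *Dgat1* stood at 34.3 CPM in pSEB (29.2 to 39.95, 164 UMIs) and 40.6 CPM in sSEB (18.5 to 77.01, 9 UMIs), a log2 ratio of -0.24 (-1.20 to 0.91). *Dgat2* stood at 45.6 CPM in pSEB (39.7 to 52.0, 218 UMIs) and 45.1 CPM in sSEB (21.6 to 82.9, 10 UMIs), a log2 ratio of 0.02 (-0.89 to 1.10). With 9 and 10 UMIs in sSEB, differences of up to about 2-fold in either direction were not detectable at this depth.

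The stages are mixed differently in the 2 tissues, since 855 of 955 pSEB but 23 of 49 sSEB were differentiated. Among differentiated SEB alone, an alternative chosen after seeing the data, 5 of the 6 members with a ratio were past 2-fold, 1 higher and 4 lower. Of 5967 genes, 19.3% were higher, 15.4% lower and 34.7% either. *Awat2* was higher in PG (643 against 62.0 CPM, log2 3.37, 2.33 to 4.69). *Soat1* (237 against 1319 CPM) was lower in PG with a log2 ratio of -2.48, *Far2* (0.223 against 372 CPM) with -10.71, and *Awat1* by at least 119-fold. *Dgat1*, at 34.9 against 79.7 CPM, was also past 2-fold lower (log2 -1.19, -2.15 to -0.03), but 4 of the 9 skin UMIs came from 1 cell. Without the SEB of at least 300 marker UMIs per 10000, of which that cell was the 1 in skin, it was at 35.2 against 48.5 CPM (log2 -0.47, -1.72 to 1.18) and no longer past 2-fold. *Dgat2* was at 47.6 against 70.8 CPM (log2 -0.57, -1.58 to 0.66). Differentiated SEB of the 2 tissues were not alike in marker share, with medians of 109 marker UMIs per 10000 in PG and 202 in skin. At an equal share of 200 to 300 the log2 ratio of *Soat1* was -1.64. The part of marker share in these ratios was not tested.

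**Figure D2:**
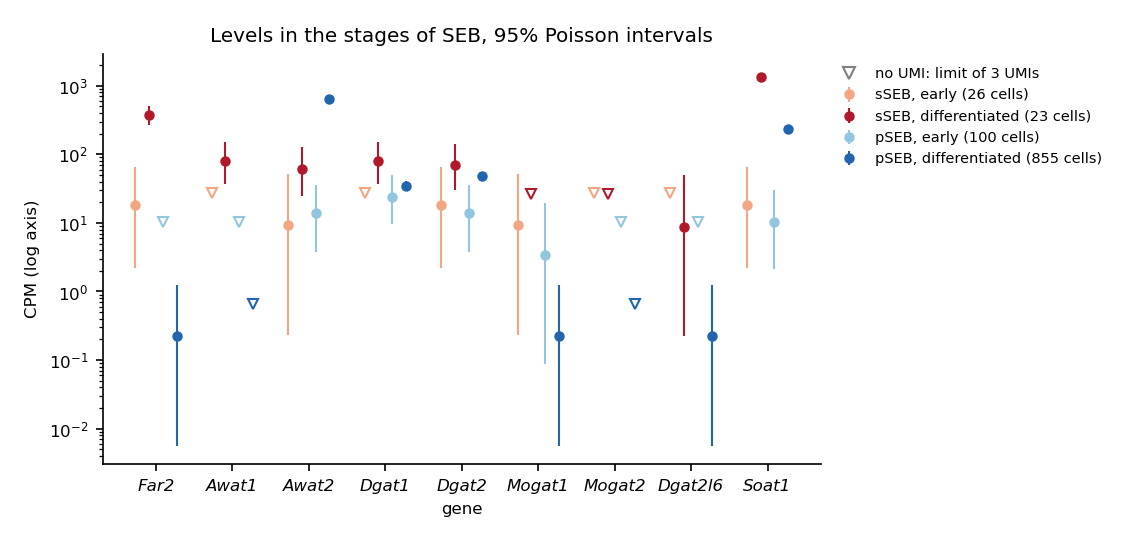
Level of each gene in CPM on a log axis, in early and differentiated sSEB and pSEB. Points are levels, bars are exact 95% Poisson intervals, and open triangles mark the limit of 3 UMIs where a group had none. *Soat1* and *Far2* of differentiated sSEB (1319 and 372 CPM) lie above all other groups, as does *Awat2* of differentiated pSEB (643 CPM), and *Dgat1* and *Dgat2* intervals overlap between most groups.

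The second question was how the enzymes change from early to differentiated SEB. In PG, *Awat2*, *Soat1* and *Dgat2* were higher in the differentiated stage and *Dgat1* was not past 2-fold, so 3 of the 4 members with a ratio were higher and 0 lower. Of 8585 genes, 8.79% were past 2-fold higher, 17.3% lower and 26.1% either. *Awat2* stood at 643 CPM in differentiated and 13.8 CPM (3.76 to 35.3, 4 UMIs) in early pSEB, a log2 ratio of 5.54 (4.18 to 7.42). *Soat1* was at 237 and 10.35 CPM (3 early UMIs), a log2 ratio of 4.52 (2.97 to 6.80). *Dgat2* was at 47.6 and 13.8 CPM, a log2 ratio of 1.79 (0.41 to 3.68), and *Dgat1* at 34.9 and 24.2 CPM, a log2 ratio of 0.53 (-0.54 to 1.87). In PG fibroblasts *Awat2* was at 7.38 CPM (2.97 to 15.2), and early pSEB did not exceed this beyond counting error, so its 4 UMIs there are not read as expression. For *Soat1*, early pSEB did not differ from basal (11.7 CPM) and upper follicle (11.3 CPM) cells beyond counting error, and with 3 UMIs expression was not detectable above the level of these classes.

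In skin, 6 of the 6 members with a ratio were past 2-fold higher in differentiated SEB. Of 4766 genes, 16.6% were higher, 23.5% lower and 40.2% either. For *Soat1* (1319 against 18.4 CPM, log2 6.17, 4.29 to 9.23) and *Far2* (372 against 18.4 CPM, log2 4.34, 2.40 to 7.43) the interval lay above 0. For *Awat2* (7 against 1 UMI, log2 2.76, -0.21 to 8.25) and *Dgat2* (8 against 2 UMIs, log2 1.95, -0.38 to 5.22) it included 0. *Awat1* and *Dgat1* each had 9 UMIs in differentiated and 0 in early sSEB. With 3 UMIs put for the 0 this was 2.89-fold higher, a value that leaves out the counting error of the 9 UMIs. Of those 9, 1 cell held 5 of *Awat1* and 4 of *Dgat1*, and without it both ratios fell under 2-fold (log2 0.50 and 0.82), which left 4 members. With every cell thinned to 1000 UMIs a ratio was formed for *Soat1* and *Far2* alone, both past 2-fold, so the count was 2 in place of 6.

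The marker share of a cell, which no member entered, gives a finer order of pSEB. *Awat2* went from 6.75 CPM (3.59 to 11.5) in the 472 cells with 50 to 100 marker UMIs per 10000, through 25.1 and 51.5 CPM in the next 2 ranges, to 2160 CPM in the 80 cells with 200 to 300 and 7086 CPM in the 27 cells above. *Soat1* went from 11.9 CPM through 57.7, 140 and 498 to 2590 CPM. *Dgat1* stayed between 27.0 and 70.1 CPM and *Dgat2* between 28.0 and 75.5 CPM. Thus *Awat2* and *Soat1* had their highest levels in the range of highest marker share, and the 2 triglyceride synthases spanned less than 3-fold over the same cells. Median depth also rose over these ranges, from 3845 to 9205 UMIs, and 12 cells held 67.9% of the *Awat2* UMIs of PG. In the lowest range *Awat2* was not above PG fibroblasts (7.38 CPM) beyond counting error. *Soat1* there was likewise not above basal (11.7 CPM) or upper follicle cells (11.3 CPM) of PG. These lowest levels are not read as expression.

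**Figure D3:**
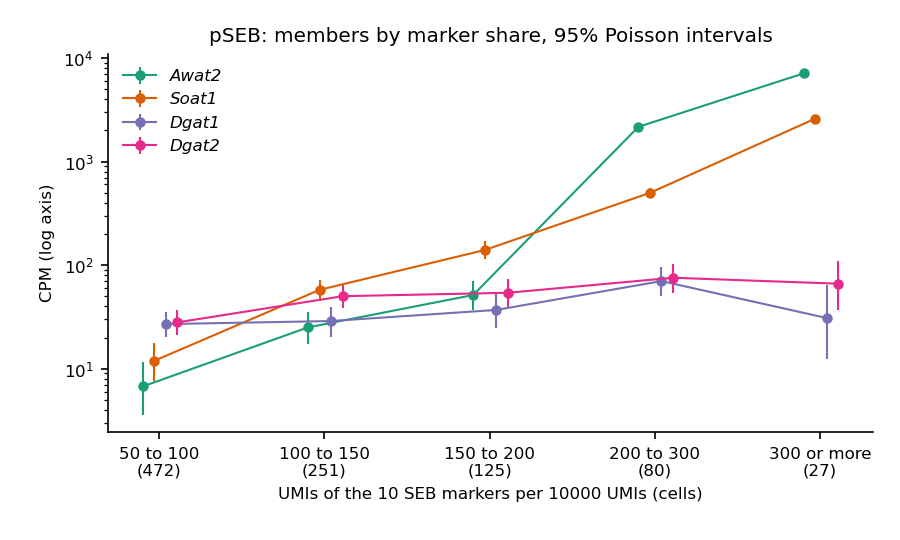
Levels of 4 genes in pSEB in CPM on a log axis, by the number of SEB marker UMIs per 10000 UMIs of a cell (number of cells in parentheses), with exact 95% Poisson intervals as bars. *Awat2* goes from 6.75 to 7086 CPM and *Soat1* from 11.9 to 2590 CPM, while *Dgat1* and *Dgat2* stay under 76 CPM.

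At an equal marker share of 200 to 300 per 10000 there were 80 pSEB and 11 sSEB. *Awat2*, *Soat1*, *Far2* and *Awat1* differed there between tissues in the same directions as over all SEB. An equal share need not mean an equal stage, because different markers made it up. In differentiated SEB, *Acsbg1* stood at 602 CPM in skin and 14.5 CPM in PG, *Elovl3* at 274 and 5.12, and *Scd3* at 204 and 10.7. *Mgst1* (4047 and 7100 CPM) was higher in PG, and *Fasn* (336 and 343 CPM, 38 skin UMIs) was near equal. The other markers had higher levels in skin, *Pparg* (70.8 and 43.0 CPM) on 8 skin UMIs. *Awat2* stood at 2160 CPM in PG and 111 CPM in skin (log2 4.28, 3.23 to 5.60). *Soat1* was at 498 and 1557 CPM (log2 -1.64, -1.98 to -1.30). *Far2* had 0 UMIs in PG and 30 in skin, and *Awat1* 0 and 4. *Dgat1*, at 70.1 and 79.5 CPM, had a log2 ratio of -0.18 (-1.52 to 1.52), and *Dgat2*, at 75.5 and 47.7 CPM, one of 0.66 (-0.98 to 3.00). In the range of 50 to 100, which held 472 pSEB and 32 of the 49 sSEB, *Awat2* gave no ratio. It was at 6.75 CPM (13 UMIs) in PG and 7.65 CPM (0.194 to 42.6, 1 UMI) in skin, so a direction could not be told. *Soat1* there was at 11.9 and 38.3 CPM (log2 -1.68, -3.11 to 0.07), and *Far2* had 0 UMIs in PG and 4 in skin. *Dgat1* had 52 UMIs in PG and 0 in skin, a log2 ratio of at least 0.23.

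Some cells of the differentiated stage held UMIs of more than 1 member. In skin, *Soat1* was found in 14 and *Far2* in 15 of 23 differentiated sSEB, and 13 cells had both. All 5 cells with *Awat2* also had *Soat1* and *Far2*. In PG, *Awat2* was found in 113 and *Soat1* in 207 of 855 cells, and 77 had both, which is 68.1% of the *Awat2* cells and 37.2% of the *Soat1* cells. *Dgat1* and *Dgat2* were found together in 24 cells, 18.9% of the *Dgat1* cells, where 20.1% of all differentiated pSEB had *Dgat2*. These shares rise with depth, which the genes of a cell have in common.

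The third question was where in the epithelium the enzymes are found. In PG, SEB over the other epithelial cells had ratios past 2-fold for 4 of 5 members, 3 higher and 1 lower, against 9.51% of 13355 genes higher, 19.8% lower and 29.3% either. *Awat2* (605 against 10.7 CPM, log2 5.82, 5.46 to 6.20), *Soat1* (223 against 11.5 CPM, log2 4.28, 3.93 to 4.65) and *Dgat2* (45.6 against 14.7 CPM, log2 1.64, 1.27 to 2.01) were higher in SEB. *Dgat1* was at 34.3 against 18.1 CPM, a log2 ratio of 0.92 (0.56 to 1.28). *Dgat2l6* was lower in SEB, with 1 against 81 UMIs (log2 -6.00, -11.32 to -3.48). In skin, 5 of 6 were higher and 0 lower, against 13.5% of 8483 genes higher, 18.3% lower and 31.8% either. *Far2* (log2 7.57, 6.79 to 8.40), *Awat2* (6.18, 4.64 to 7.67), *Soat1* (5.66, 5.36 to 5.95) and *Dgat1* (40.6 against 7.65 CPM, 2.41, 1.25 to 3.37) were higher in sSEB, and *Awat1* was at least 272-fold higher. *Dgat2* was not, at 45.1 CPM in sSEB and 60.5 CPM in the other epithelial cells (log2 -0.43, -1.49 to 0.46). With every cell thinned to 1000 UMIs, *Soat1* (5.81) and *Far2* (6.83) remained higher, *Dgat2* (-1.001) was just past 2-fold lower, and *Awat1*, *Awat2* and *Dgat1* gave no ratio.

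*Dgat2* of skin was a gene of the suprabasal epidermis. Mice without this enzyme are known for a defective skin barrier as well as for low triglyceride. Suprabasal cells, gated by *Krt1*, *Krt10*, *Krtdap*, *Sbsn*, *Dsg1a* and *Lor*, held 1029 of the 1305 *Dgat2* UMIs of skin at 195 CPM (183 to 207), and basal cells 8.12 CPM (6.53 to 9.98), 24.0-fold less. Within the suprabasal class, *Dgat2* stood at 126 CPM in the 1055 cells without a UMI of *Lor*, a cornified envelope gene, at 274 CPM in the 143 cells with fewer than 50 per 10000, and at 580 CPM (516 to 650) in the 64 cells with more. The median depth of these cells also rose, from 2999 to 5143 and 7639 UMIs. Of the last 64 cells, 58 had a *Dgat2* UMI.

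Skin clusters, made without the members, gave *Dgat2* in finer layers. The cluster led by *Lce1m* and *Lor* (111 cells), genes of the uppermost living layers, had 530 CPM, the cluster led by *Krt77* and *Krt78* (214 cells) 346 CPM, and the cluster led by *Sprr1a* (357 cells) 77.1 CPM. The first was 11.8-fold above all sSEB (log2 3.56, 2.67 to 4.63), of which 26 were early. Differentiated sSEB alone stood at 70.8 CPM (30.6 to 140, 8 UMIs). A cluster led by *Cd207*, a Langerhans cell gene, had 118 CPM (72.7 to 180, 21 UMIs). The level in skin suprabasal cells was also 4.28-fold above that of pSEB (log2 2.10, 1.88 to 2.31). In the upper follicle class, the 1 epithelial class beside basal cells and SEB with at least 20 cells in both tissues, *Dgat2* was at 45.7 CPM in skin and 27.8 CPM in PG (log2 -0.72 for PG over skin, -1.21 to -0.23).

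Outside SEB, *Soat1* of skin was highest in 2 small clusters that mostly passed no class limit. A cluster of 37 cells led by *Tchhl1*, *Sct* and *Gpnmb* held 309 of its 781 UMIs at 2314 CPM (2063 to 2587), with 32 cells positive, and a cluster of 44 cells led by *Kitl*, *Aldh1a3* and *Gpnmb* held 95 at 556 CPM (450 to 679). *Tchhl1* belongs to the family of trichohyalin, a protein found in the inner root sheath among other places. That does not name the cells of these clusters, and their type was not determined. The median cell had 7.83 and 7.35 SEB marker UMIs per 10000, against 13.9 in other epithelial cells, and none was gated as SEB. The first cluster was 1.75-fold above differentiated sSEB (log2 0.81, 0.52 to 1.10) and the other 2.37-fold below. Of the first, 24 cells passed no class limit and 12 passed that of hair matrix and inner root sheath, and of the other 39 and 4. The median cell held 35.7 and 19.1 hair marker UMIs per 10000, against 189 in the largest cluster of hair matrix cells. The hair matrix and inner root sheath class had 104 CPM (90.3 to 118) with 17 of 515 cells positive.

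**Figure D4:**
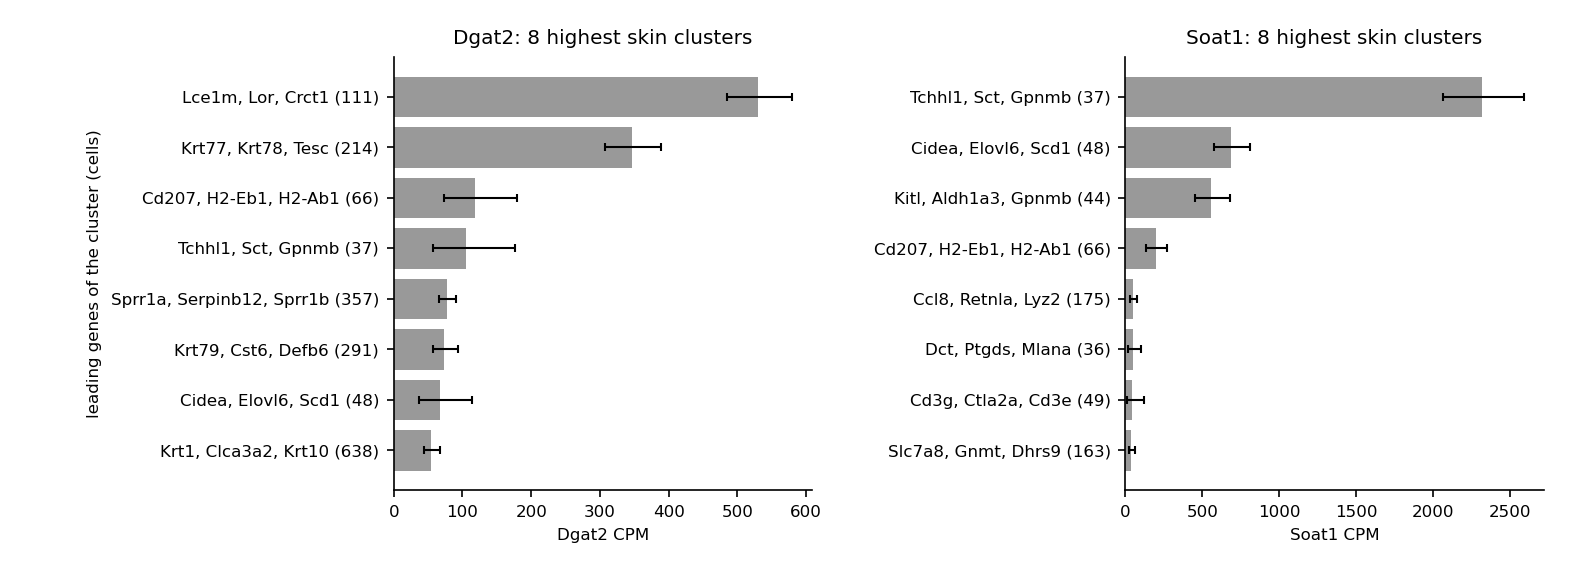
The 8 skin clusters with the highest level of *Dgat2* (left) and of *Soat1* (right), named by leading genes, with the number of cells in parentheses. Bars are CPM from 0 and whiskers exact 95% Poisson intervals. *Dgat2* is highest in the cluster led by *Lce1m* and *Lor* (530 CPM), *Soat1* in the cluster led by *Tchhl1* and *Sct* (2314 CPM), above the SEB cluster led by *Cidea* (684 CPM).

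*Soat1* UMIs were also counted in myeloid cells of both tissues. Esterification of cholesterol is a known trait of lipid-laden macrophages. It stood at 112 CPM (82.3 to 148, 48 UMIs) in skin and 91.2 CPM (64.2 to 126, 37 UMIs) in PG myeloid cells, a log2 ratio of -0.29 (-0.95 to 0.36). In fibroblasts it was at 31.0 and 36.9 CPM (log2 0.25, -0.39 to 0.87). Both intervals include 0. In the order of PG classes, differentiated pSEB (237 CPM) lay above myeloid cells and fibroblasts above basal cells (11.7 CPM) with intervals of the ratio above 0, whereas basal, upper follicle and early SEB did not differ from one another.

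*Dgat2l6*, a *Dgat2* relative, was a gene of PG epithelium outside SEB. The upper follicle class of PG held 67 of its 90 UMIs at 27.0 CPM (20.9 to 34.3), basal cells 14 at 3.92 CPM and SEB 1 at 0.209 CPM. The median cell of this class held 321 upper follicle and 53.0 suprabasal marker UMIs per 10000 in PG, and 389 and 47.9 in skin. Only 2 PG cells were gated as suprabasal, and which cells of the gland make up the class was not determined. The upper follicle class lay above the basal class with a log2 ratio of 2.78 (1.94 to 3.73), and that above differentiated pSEB. By cluster, *Dgat2l6* stood at 31.8 CPM (20.6 to 47.0) in cells led by *Defb1* and at 25.2 CPM (17.9 to 34.4) in cells led by *Cst6* and *Krtdap*. The upper follicle class of skin had 1 UMI, 0.609 CPM, for a log2 ratio of PG over skin of 5.47 (2.94 to 10.79). In PG, UMIs were found in 8.31% of upper follicle cells and in 0 of 598 fibroblasts, at median depths of 3861 and 1366.

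*Dgat1* was the most even of the members with over 100 UMIs in PG. Over PG classes of at least 20 cells its levels ran from 15.8 CPM in fibroblasts to 34.9 CPM in differentiated pSEB, and no neighbouring pair in that order differed beyond counting error. The ends of the order did, since differentiated pSEB lay above basal cells (log2 0.84, 0.42 to 1.26) and above the upper follicle class (1.12, 0.61 to 1.66). The 5 T cells of PG held 4 UMIs. The highest levels by cluster were 188 CPM (116 to 287, 21 UMIs) in the 12 cells led by *Idi2*, and without the 1 cell with 11 of them 99.8 CPM (47.9 to 184). The next was 122 CPM (74.5 to 188, 20 UMIs) in 68 lymphoid cells led by *Igkc*, *Jchain* and *Cd3g*. Basal cells held 19.6 CPM in PG and 8.48 CPM in skin (log2 1.21, 0.74 to 1.67). In skin, all epithelial classes other than SEB lay between 5.69 and 8.90 CPM without a difference between neighbours.

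The monoacylglycerol acyltransferases were near or at 0. *Mogat1* had 15 UMIs in skin, 8 of them in basal cells at 0.722 CPM (0.312 to 1.42), and 7 in PG, where no class held more than 3. *Mogat2* had 0 of 27407186 UMIs in skin cells and 0 of 15270076 in PG cells, with exact upper limits of 0.135 and 0.242 CPM.

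RNA outside cells was read from barcodes with 10 to 100 UMIs. In PG, *Awat2* stood at 327 CPM (742 UMIs) and *Soat1* at 493 CPM (1119 UMIs) there, and differentiated pSEB were at 196% and 48.1% of these levels. Basal, upper follicle, fibroblast and myeloid cells held *Awat2* at 2.26 to 4.18% of its free level, or 7.38 to 13.7 CPM. Whether these UMIs came from free RNA was not tested, and they are not read as expression. *Soat1* ranged from 2.29% in upper follicle cells to 18.5% in myeloid cells, and *Dgat2l6* was at 1224% in upper follicle cells. *Dgat1* lay between 78.0% and 109% in the 4 classes. In skin, *Awat1* was at 1.75 CPM in free RNA (9 UMIs) and 0.365 CPM in cells, and *Far2* at 5.43 and 2.81 CPM.

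**Figure D5:**
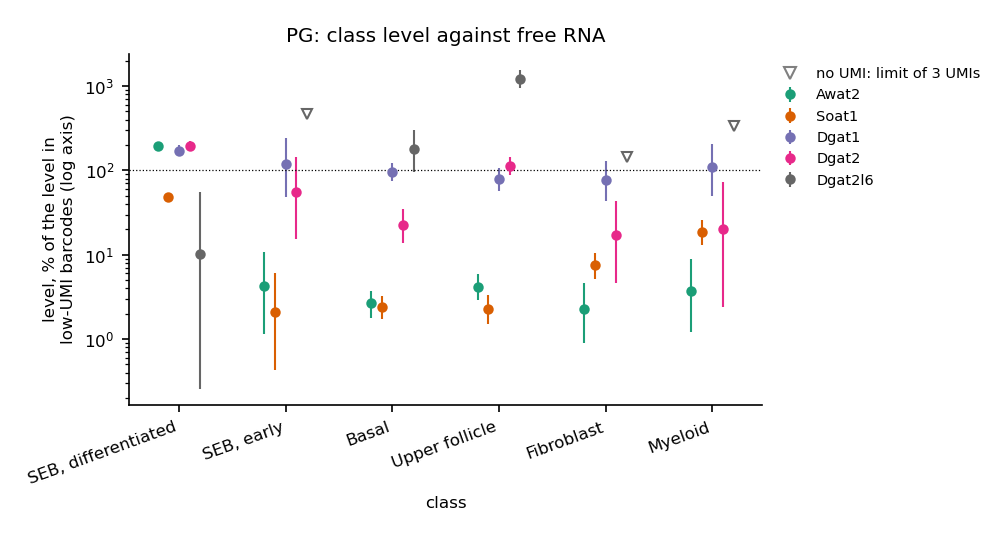
Level of 5 genes in 6 PG classes as a percentage of their level in barcodes with 10 to 100 UMIs (log axis, dotted line at 100%). Bars are exact 95% Poisson intervals of the class level, and open triangles mark the limit of 3 UMIs. *Awat2* lies at 2.26 to 4.22% in every class shown other than differentiated SEB (196%), and *Dgat2l6* reaches 1224% in the upper follicle class.

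Barcodes removed for over 10% mitochondrial UMIs held members too. In PG, 156 of the 662 removed passed the SEB limits, with *Awat2* at 572 CPM and *Soat1* at 951 CPM. In skin, 8 of the 232 removed passed them, with *Soat1* at 2443 CPM (43 UMIs) and *Far2* at 909 CPM (16 UMIs). Levels differed with mitochondrial share, but not in 1 order for both genes. In pSEB, *Awat2* was at 157 CPM in the 752 cells with at most 5%, at 2279 CPM in the 203 cells above that and at 572 CPM in the removed barcodes. *Soat1* was at 96.2, 699 and 951 CPM in the same groups, and in sSEB at 606, 988 and 2443 CPM. With at most 5% in both tissues the log2 ratio of pSEB over sSEB was 2.48 for *Awat2* and -2.65 for *Soat1*. With no limit it was 4.17 and -1.45, while the *Awat2* level of pSEB was 601 CPM against 605 CPM as reported. The part of mitochondrial share in these levels was not tested.

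Other genes of glycerolipid synthesis, storage and lipolysis, a list of 27 that excludes the members, were compared in the same way. In pSEB over sSEB 17 had a ratio, of which 11 were past 2-fold higher, 1 lower (*Agpat2*) and 5 within, with a median log2 ratio of 1.34, against 18.9% and 17.8% of all genes. By the rule of at least 4-fold with at least 50 CPM in one of the tissues, 5 are named. *Far1*, the other fatty acyl-CoA reductase, stood at 261 CPM in pSEB and 18.03 CPM in sSEB (log2 3.86, 2.50 to 5.74). *Agpat3*, a lysophosphatidic acid acyltransferase, was at 289 and 22.5 CPM (log2 3.68, 2.46 to 5.31), and *Gpat4*, a glycerol-3-phosphate acyltransferase, at 74.4 and 9.01 CPM (log2 3.05, 1.18 to 6.10). *Hilpda* and *G0s2*, small inhibitors of the lipase encoded by *Pnpla2*, were at 81.5 against 18.03 CPM (log2 2.18, 0.81 to 4.06) and at 66.1 against 0 CPM, at least 4.89-fold higher. The sterol acyltransferases *Soat2* and *Lcat* had 0 UMIs in SEB of both tissues. Among differentiated SEB alone, 7 of 14 were higher and 0 lower (19.3% and 15.4% of all genes). Part of these levels came from few cells. *Far1* stood at 8843 CPM in the 12-cell PG cluster led by *Idi2*, at 531 CPM in the cluster led by *Soat1* and between 20.3 and 64.5 CPM in all other PG clusters. Without the cluster led by *Idi2*, *Hilpda* of pSEB was at 29.5 CPM (log2 0.71, -0.68 to 2.61) and no longer past 2-fold. *Far1* was at 55.9 CPM (log2 1.63, 0.26 to 3.52), lower than with the cluster but still past 2-fold. *Agpat3* (3.47), *Gpat4* (2.66) and *G0s2* (at least 4.99-fold) also stayed past it, and 10 of 17 were higher and 1 lower. From early to differentiated SEB, 8 of 16 were higher in PG (8.79% of all genes) and 4 of 7 in skin (16.6%), and 0 were lower (17.3% and 23.5%). In SEB over other epithelial cells, 12 of 20 were higher and 0 lower in PG (9.51% and 19.8% of all genes), and 5 of 16 were higher and 3 lower in skin (13.5% and 18.3%).

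The genes most like each member in level over 20 classes and stages of both tissues were ranked among 8392 genes by Pearson's r of log2(CPM + 10). The points share libraries and differ in depth, and the correlations are descriptions. For *Awat2* they were *Tmem56* (0.935), *Lhpp* (0.889) and *Idi2* (0.884), for *Soat1* *Clstn3* (0.791), *Fa2h* (0.753) and *Panx3* (0.730), and for *Far2* *Elovl3* (0.976), itself a SEB marker used for the classes, *Defb8* (0.969) and *Acoxl* (0.962). *Dgat1* was most like *Slc52a2* (0.781), *Rdh11* (0.778) and *Plekhj1* (0.755), and those most like *Dgat2* included *Gas2l1* (0.736) and *Smagp* (0.693). *Dgat2l6*, with a level of at most 27.0 CPM in any class, was most like the desmosomal cadherin *Dsc2* (0.935), *Serpina1e* (0.878) and *Igkv4-55* (0.876).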

How the data were processed

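Single-cell RNA was measured in 1 back skin and 1 PG library from cells of 3 mice pooled per tissue. The labels name a 10x 3′ v3.1 kit for both, but the barcode lists differ in length (6794880 and 737280). The authors deposited raw UMI counts per gene and barcode for all listed barcodes, produced with Cell Ranger 4 per the file headers and build mm10 per the submitters' processing notes. Annotation release and strand setting are not given in the sources used here. The study's own cell filter is stated without numbers.

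Barcodes with at least 500 genes, 1000 UMIs and at most 10% mitochondrial UMIs were kept (8899 and 4699, 27407186 and 15270076 UMIs). No doublet caller was used in the main values, but 101 and 29 cells with markers of 2 lineages were left out. Classes needed 50 marker UMIs per 10000 (40 for basal cells) and 3 markers. These limits were set after seeing the data, and the members and lists were chosen with earlier results of these data known. The SEB markers, basal markers and 27 further genes were listed with the design.

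For each class, a gene's UMIs were summed over cells and divided by all UMIs of the class. A ratio was formed where the higher group had over 3 UMIs, and a group at 0 stood at 3 UMIs. The counting error of the other group does not enter such a ratio. Called means past 2-fold. With 1 library per tissue there was no test and no p-value. Named genes were the 9 members, list genes past 4-fold with at least 50 CPM, and the 3 genes most like each member with 50 or more UMIs. Of the last, 1 gene is not reported here. Clusters were Leiden clusters (scanpy 1.11.5, leidenalg 0.10.2, 2000 variable genes, 30 components, 15 neighbours, resolution 1, members left out). Counting code was tested on simulated data. The analysis used Python 3.11.15, numpy 2.4.6, scipy 1.17.1 and pandas 2.3.3. In all, 9 planned and 6 added alternatives were run, over 5 comparisons. Gene positions come from GENCODE and promoters from RefSeq (GRCm38.p6).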

Additional observations from a re-analysis of the deposited data

Results flagged for a closer look

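In data outside the comparisons, 3 signals stood above the limit that a count of 0 allows. *Awat1* was at 1.75 CPM (9 UMIs) in skin barcodes with 10 to 100 UMIs, against 0.365 CPM in the cells. *Soat1* was at 59.7 CPM (52.2 to 68.0, 227 UMIs) in the 1228 skin cells that passed no class limit, of which 76 had a UMI. *Soat1* was at 493 CPM (1119 UMIs) in PG barcodes with 10 to 100 UMIs, against 83.0 CPM in the cells and 237 CPM in differentiated pSEB.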

How the results depend on the processing

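Of 295 member values under the alternatives, 256 moved by less than their counting interval. Another 38 moved by more without a change of direction, and 1 changed sign. The log2 ratio of *Soat1* in pSEB over sSEB was 0.039 with Leiden clusters in place of the marker limit (-1.61 as reported). With these clusters 198 of 199 pSEB but 21 of 48 sSEB were differentiated. Of 56 counts of members past 2-fold, 54 stayed within 1.5 times. With every cell thinned to 1000 UMIs, differentiated over early sSEB gave 2 members (6 as reported), and sSEB over other epithelial cells gave 3, of which 2 were higher and 1 lower (5 as reported). The log2 ratio of *Awat2* in pSEB over sSEB ran from 2.48 (at most 5% mitochondrial UMIs) to 6.17 (Leiden clusters), and was 2.90 without SEB of at least 300 marker UMIs per 10000. That of *Soat1* was otherwise between -2.65 and -1.45. The cause was not tested. Setting the median ratio of expressed genes to 0 moved pSEB over sSEB by 0.10 and kept all directions called there. In all, 6 alternatives were chosen after seeing the data. Differentiated over early SEB could not be computed with the SEB limit doubled in either tissue, or with Leiden clusters in PG, because a stage held fewer than 10 cells. No paired analysis was possible because each tissue has 1 library, and leaving out a replicate was not possible for the same reason. Depth limits sSEB most, where *Awat1*, *Awat2*, *Dgat1* and *Dgat2* rest on 8 to 10 UMIs.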
